A study of Rattus norvegicus with 49 samples.

Results

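The genes described here encode the subunits of the mitochondrial respiratory chain and of ATP synthase, measured as RNA in liver and kidney of rats given propylene glycol phenyl ether (PPH), a glycol ether solvent. Members were taken by symbol: every gene whose symbol starts with Nduf, Sdha to Sdhd, Uqcr, Cox4 to Cox8 or Atp5, read from the probe set that was annotated to that symbol alone and had the highest mean over all arrays. The rule found 90 members among 14217 genes, of which 89 were protein coding and 1, Cox6c-ps1, was a transcribed pseudogene. Of the members, 34 were subunits of complex I, 4 of complex II, 7 of complex III, 18 of complex IV and 15 of complex V (ATP synthase). The other members were 6 complex I assembly factors, 4 complex II assembly factors, the ATP synthase inhibitor Atp5if1 and the pseudogene. A further 33 protein-coding genes with such symbols had no probe set of their own on the array, among them Ndufa10, Uqcrb, Cox7a2, Atp5mc1 and Atp5mc2, and 7 probe sets were left out because a second symbol shared them.

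The respiratory chain is the set of protein complexes in the inner mitochondrial membrane that passes electrons from NADH (through complex I) and succinate (through complex II) to complex III, cytochrome c and complex IV, where oxygen is reduced. Complexes I, III and IV pump protons, and complex V uses the proton gradient to make ATP. A few core subunits of complexes I, III, IV and V are encoded in mitochondrial DNA and do not carry the symbols above, so the members are the nuclear-encoded share. Hepatocytes and the cells of the proximal tubule are rich in mitochondria, and several subunits of complex IV exist as pairs of genes of which one serves most tissues and the other mainly heart, skeletal muscle, brown fat, testis or oxygen-poor tissue.

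Male Harlan Sprague Dawley rats, aged 6 to 8 weeks when assigned, were gavaged for 5 consecutive days with PPH in corn oil (5 mL/kg) and killed the day after the last dose. The dose groups were 0, 1, 10, 100, 500 and 1000 mg/kg, where 0 mg/kg was the corn oil control, and animals given 2000 mg/kg were moribund and gave no tissue. Each organ had 5 arrays at 0 mg/kg and 4 at each other dose, except that 3 kidney arrays were analysed at 500 mg/kg, which makes 25 liver and 24 kidney arrays, 1 per labelled biological replicate. The treatment text names another chemical, MCHM, whereas the title and the sample labels name PPH. The labels do not describe the animals' condition at each dose, and the sources used here do not say whether both organs went through normalization as 1 set, so levels are not compared between the organs.

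Total RNA was hybridized to Affymetrix Rat Genome 230 2.0 arrays and the deposited values are RMA log2 values, in which a difference of 1 is a doubling. No call of presence comes with them, so a low value is not shown to lie above background, and the number of arrays limits the precision. Hepatocyte markers such as Alb (14.51 to 14.72 in liver) and proximal tubule markers such as Slc34a1 (13.27 to 13.81 in kidney) were high in every array of the labelled organ. In kidney, 7 of 24 arrays had a mean of 8 adipocyte markers more than 0.5 log2 units above the 0 mg/kg mean (0.50 to 1.55 above), and replicate 2 at 10 mg/kg and at 100 mg/kg had hepatocyte markers 1.1 and 0.65 log2 units above it. In these bulk samples, fewer cells of a type and less RNA per cell cannot be told apart. For each dose against 0 mg/kg, the limma p-values below measure the spread between the labelled replicates of a dose, pooled over the 6 doses of an organ. For the trend the spread is that of the arrays around a straight line over dose rank, so it includes departures of the dose means from that line. For the contrast between the organs the spread is pooled over the dose groups of both organs.

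None of the 90 members passed limma's Benjamini-Hochberg adjusted threshold of 0.05 in any of the 13 comparisons. Over all genes the share called in liver was 0%, 0.00703%, 0%, 0.0492% and 1.05% at 1, 10, 100, 500 and 1000 mg/kg, with 0.661% for the trend over dose rank. In kidney the share was 0% at 1, 10, 100 and 500 mg/kg, 1.55% at 1000 mg/kg and 1.39% for the trend. For the contrast of liver with kidney at the highest dose it was 0.626%. Other limma settings called members in liver alone: 4 at 500 mg/kg when dim genes were left out, 3 when the variance was modelled with a trend, and at most 1, Atp5if1, at 1000 mg/kg. What the members showed was a small positive median change in liver at 1 to 500 mg/kg, with the largest medians in complex I and the assembly factors, and medians near 0 in kidney.

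In liver the median log2 change of the 90 members was 0.08, 0.08, 0.08, 0.11 and 0.04 at 1, 10, 100, 500 and 1000 mg/kg. The median over all genes was 0.02 at each of these doses, and over the 3555 genes with the highest mean signal in liver, which include 77 of the 90 members, it was between 0.03 and 0.05. Members with a positive change numbered 72, 75, 79, 81 and 55 of 90 at 1, 10, 100, 500 and 1000 mg/kg, against 55.6%, 56.8%, 55.6%, 56.5% and 54.3% of all genes. Each of these comparisons uses the same 5 arrays at 0 mg/kg, so a low value in those arrays would enter all of them. With each array centred on its own median, the median member change was 0.04, 0.03, 0.04, 0.06 and 0.00 log2 units at the 5 doses, and the median over all genes was -0.03 at 1 to 500 mg/kg and -0.02 at 1000 mg/kg. The members' median minus that of all genes was 0.06, 0.06, 0.06, 0.09 and 0.02 as deposited. Centring shifts all genes of an array equally and so cannot change this gap. After quantile normalization within the organ, which can change it, the gap was 0.05, 0.06, 0.06, 0.08 and 0.01.

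Before adjustment for the number of genes, 22 members had a limma p under 0.05 in liver at 1 mg/kg, against 9.45% of all genes, and 21 of these had a positive change, against 6.34%. At 10 mg/kg there were 28 (all genes 9.22%), each with a positive change (6.07%). At 100 mg/kg there were 25 (9.18%), of which 24 were positive (6.29%), and at 500 mg/kg 37 (10.7%), each positive (7.48%). At 1000 mg/kg the number was 14 (12.4%), with 13 positive (7.88%). The number was highest at 500 mg/kg and lowest at 1000 mg/kg. Whether the members' change at 1000 mg/kg differs from that at 500 mg/kg was not tested.

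The arrays of a dose can also be set directly against the 5 control arrays. At 500 mg/kg, 28 members were higher in each of the 4 arrays than in each of the 5 at 0 mg/kg, against 3.55% of all genes, and none was lower in each (1.01% of all genes). The number higher in each array was 7 at 1 mg/kg (1.89% of all genes), 18 at 10 mg/kg (2.7%), and 17 at 100 mg/kg (2.54%). It was 6 at 1000 mg/kg (3.45%). Lower in each array was 1 member at 100 mg/kg (0.879% of all genes), and none at 1 mg/kg (0.732%) or 10 mg/kg (0.886%). At 1000 mg/kg 2 members were lower in each (1.73%).

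**Figure D1:**
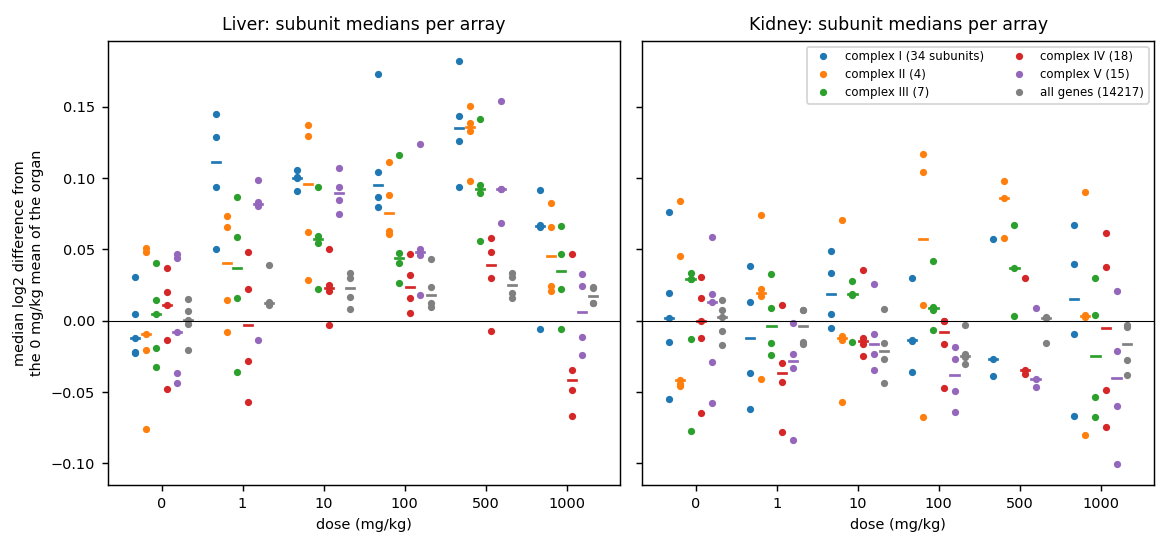
Median log2 difference from the organ's 0 mg/kg mean over the subunits of each complex, for each array, against dose in mg/kg, with liver and kidney in separate panels; a short line marks the median of the arrays at a dose. In liver the complex I medians of the 16 arrays at 1 to 500 mg/kg lie between 0.05 and 0.18, above the 5 arrays at 0 mg/kg (-0.02 to 0.03). With arrays centred on their median, which also moves the median of all genes from 0.02 to -0.03, 10 of the 16 stay above. Complex IV medians, which include isoforms of low signal, overlap with those at 0 mg/kg at each dose, as do the complex I medians in kidney.

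Complex I is the entry point for electrons from NADH and the largest complex of the chain, with a set of core subunits conserved from bacteria and many supernumerary subunits around them. Its 34 measured subunits had liver medians of 0.10, 0.11, 0.12, 0.14 and 0.05 log2 units at 1, 10, 100, 500 and 1000 mg/kg. Per array, the complex I median was -0.02 to 0.03 at 0 mg/kg, 0.05 to 0.15 at 1 mg/kg, 0.09 to 0.11 at 10 mg/kg, 0.08 to 0.17 at 100 mg/kg, 0.09 to 0.18 at 500 mg/kg and -0.01 to 0.09 at 1000 mg/kg. All 16 arrays at 1 to 500 mg/kg thus lay above every array at 0 mg/kg, as did 3 of the 4 at 1000 mg/kg. After quantile normalization 15 of the 16 did, and with arrays centred on their median 10 of the 16, with complex I medians of 0.06, 0.06, 0.07, 0.09 and 0.02 log2 units at 1, 10, 100, 500 and 1000 mg/kg. The complex I median minus that of all genes was 0.09, 0.09, 0.10, 0.12 and 0.04 as deposited, a gap that centring cannot change. After quantile normalization it was 0.09, 0.08, 0.09, 0.12 and 0.03. A positive change was seen in 33 of 34 subunits at 500 mg/kg (56.5% of all genes), and 19 had an unadjusted p under 0.05 (10.7% of all genes); 5 of these were among the 6 core subunits.

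The complex I subunit with the smallest p at 500 mg/kg was Ndufa5, a supernumerary subunit of the arm that faces the matrix. At 500 mg/kg its values were 9.64, 9.60, 9.69 and 9.73, against 9.28, 9.28, 9.37, 9.41 and 9.5 at 0 mg/kg. The groups do not overlap, and the log2 difference was 0.30 ± 0.07 (SE; limma adjusted p = 0.0945). At 1 mg/kg Ndufa5 was as far from control, with 9.57, 9.59, 9.81 and 9.73 (difference 0.31, adjusted p = 0.284), whereas at 1000 mg/kg its values were 9.55, 9.35, 9.43 and 9.54, which overlap with those at 0 mg/kg (difference 0.10, adjusted p = 0.609). The promoter of Ndufa5 is shown because its gene gave the lowest p of the 78 subunits at 500 mg/kg. It is the RefSeq sequence from 250 bases before to 50 after the annotated start (GRCr8, chr4:53971186-53971485, minus strand), and the capitals mark a match to the NRF1 motif, which begins 32 bases before the start.
Ndufa5 promoter: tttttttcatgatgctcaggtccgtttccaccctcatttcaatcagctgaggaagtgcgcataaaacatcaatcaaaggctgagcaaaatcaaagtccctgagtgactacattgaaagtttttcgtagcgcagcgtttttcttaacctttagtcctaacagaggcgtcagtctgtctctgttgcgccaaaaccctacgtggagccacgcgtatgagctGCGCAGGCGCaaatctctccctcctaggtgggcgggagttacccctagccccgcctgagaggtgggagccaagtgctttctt

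Promoters of this length were matched for 82 of the 90 members. NRF1 is a transcription factor known to act on many nuclear genes of the chain, and its motif, searched on both strands as the half-sites GCGCA and GCGC with any 1 base between them, was present in 17 of the 82 (20.7%), against 7.86% of the 13243 promoters matched to all genes tested. The motif of YY1 (AAGATGGCG) was present in 11 member promoters (13.4%, against 2.93%) and that of the ETS family (CCGGAAGT), to which the chain regulator GABP belongs, in 8 (9.76%, against 6.4%). At least 1 of these 3 motifs was found in 34 of 82 (41.5%), against 15.6%, and no matches of different motifs overlapped. The TATA box letters TATAAA were present in 8 member promoters (9.76%, against 8.46%), and the direct repeat of AGGTCA with any 1 base between the copies, the form bound by PPAR receptors, was found in none, against 0.0302%. These counts describe letters in a 300-base window, not bound sites.

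Other complex I subunits with small p at 500 mg/kg (chosen after their values were seen) were the membrane-arm subunits Ndufb3 (log2 difference 0.22, adjusted p = 0.129) and Ndufb10 (0.20, adjusted p = 0.177), the NADH-side accessory subunit Ndufv3 (0.20, adjusted p = 0.164) and the core subunit Ndufs3. Ndufs3 measured 10.37, 10.33, 10.37 and 10.34 at 500 mg/kg, against 10.13, 10.19, 10.07, 10.20 and 10.12 at 0 mg/kg. In each of these genes the arrays at 500 mg/kg were all higher than those at 0 mg/kg. A second Ndufv3 probe set, with a mean over all arrays of 7.39 against 10.74 for the one used, differed by 0.05 at 500 mg/kg. At 1000 mg/kg the smallest p among complex I subunits belonged to Ndufv1, the core subunit that binds NADH and the flavin. Ndufv1 measured 10.51, 10.64, 10.54 and 10.49 at 1000 mg/kg, against 10.40, 10.44, 10.39, 10.31 and 10.44 at 0 mg/kg. These groups do not overlap, but the difference of 0.15 ± 0.06 (SE) had an adjusted p of 0.253 by limma. Ndufb8 (0.21, adjusted p = 0.270) and Ndufa3 (0.17, adjusted p = 0.304), both in the membrane arm, had arrays that overlapped with control. Ndufb9, with a liver mean of 11.89, and Ndufab1, the mitochondrial acyl carrier protein, with a mean of 11.67, each had a limma adjusted p above that of Ndufv1 at 1000 mg/kg.

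Complex II, succinate dehydrogenase, links the chain to the citrate cycle. Its 4 subunits had liver medians of 0.06, 0.10, 0.08, 0.13 and 0.06 log2 units at 1, 10, 100, 500 and 1000 mg/kg. The membrane anchors Sdhc and Sdhd had positive differences, and the flavoprotein Sdha had negative ones at these doses. Sdhd measured 11.57, 11.66, 11.65 and 11.61 at 1000 mg/kg, against 11.53, 11.45, 11.57, 11.49 and 11.38 at 0 mg/kg (difference 0.14 ± 0.05 SE, adjusted p = 0.255). A second Sdhd probe set had a difference of 0.16 at this dose. Sdhc differed by 0.20 at 500 mg/kg (adjusted p = 0.172) with no overlap between the groups, and by 0.11 at 1000 mg/kg (adjusted p = 0.426). Sdha was lower in each array at 100 mg/kg (at most 11.08) than in each at 0 mg/kg (at least 11.10; adjusted p = 0.493), and differed by -0.06 at 1000 mg/kg. The iron-sulphur subunit Sdhb, with a liver mean of 11.47, differed by 0.00 at 1000 mg/kg, with a 95% interval of -0.12 to 0.12.

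Complex III takes electrons from ubiquinol to cytochrome c. The median log2 change of its 7 measured subunits in liver was 0.05, 0.05, 0.06, 0.09 and 0.05 at 1, 10, 100, 500 and 1000 mg/kg. The core protein Uqcrc1 had the smallest p at 1000 mg/kg, with 10.94, 11.14, 11.08 and 10.96, against values between 10.87 and 11 at 0 mg/kg (difference 0.11, adjusted p = 0.481). The groups overlap. The small subunits Uqcr10 (0.07), Uqcr11 (0.06) and Uqcrq (-0.01) and the Rieske iron-sulphur protein Uqcrfs1 (-0.02) were closer to control, and none had an unadjusted p under 0.05 at this dose.

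Complex IV, cytochrome c oxidase, passes the electrons to oxygen. Its 18 measured subunits and isoforms had liver medians closer to 0 than complex I: 0.01, 0.02, 0.04 and -0.03 log2 units at 10, 100, 500 and 1000 mg/kg. Of the 18, 8, 10, 12, 12 and 7 were positive at 1, 10, 100, 500 and 1000 mg/kg. The 18 include isoforms of other tissues with low signals in liver, and medians without them were not computed. At 500 mg/kg every complex IV subunit outside those isoforms had a positive change, whereas most of those isoforms did not. With arrays centred on their median the medians of the 18 at 10, 100 and 500 mg/kg were -0.04, -0.03 and -0.02, where the median of all genes was -0.03 at each. The difference between complexes was not tested. At 500 mg/kg 1 of the 18 had an unadjusted p under 0.05 (10.7% of all genes). The widely expressed isoforms differed little at 1000 mg/kg: Cox4i1 by 0.03, Cox6a1 by 0.09, Cox6b1 by -0.01, Cox7b by -0.03, Cox8a by -0.03 and Cox7c by -0.07. Ndufa4, a complex IV subunit first assigned to complex I, had a liver mean of 12.29 and differed by -0.05.

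The isoforms known from other tissues had low signals in liver, and no call of presence supports them. Their means over the 25 liver arrays were 3.69 for Cox4i2 (lung and hypoxia), 4.11 for Cox6a2 (heart and muscle), 3.68 for Cox6b2 (testis), 4.88 for Cox7a1 (heart and muscle), 2.92 for Cox7b2 and 3.96 for Cox8b (heart, muscle and brown fat in rodents). Ndufa4l2, the hypoxia-responsive relative of Ndufa4, ranged from 3.90 to 4.50. Of the 5 largest standard deviations over the liver arrays 4 belonged to this group, namely Cox8b (SD 0.30), Cox6b2 (0.23), Cox7a1 (0.22) and Cox6a2 (0.22), and the other was the complex I assembly factor Ndufaf4 (0.25). Cox8b had the largest difference of any member in liver at 1000 mg/kg, with 3.75, 3.72, 3.54 and 3.94, against 4.07, 4.26, 3.77, 4.79 and 4.12 at 0 mg/kg. That is a log2 difference of -0.47 ± 0.18 (SE; adjusted p = 0.270), with groups that overlap and values near the low end of the scale.

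Complex V makes ATP through a catalytic head, a rotor, and a peripheral stalk that holds the head still. Its 15 measured subunits had liver medians of 0.07, 0.09, 0.05 and 0.10 log2 units at 1, 10, 100 and 500 mg/kg, and all 15 differences were positive at 500 mg/kg, whereas 6 of 15 were positive at 1000 mg/kg. The peripheral stalk subunit Atp5pd measured 11.97, 11.91, 11.96 and 11.97 at 500 mg/kg, against 11.73, 11.80, 11.81, 11.70 and 11.81 at 0 mg/kg. The groups do not overlap (difference 0.18 ± 0.05 SE, adjusted p = 0.172), and at 1000 mg/kg the difference was 0.14 (adjusted p = 0.242). Atp5po, the stalk subunit that binds the head, differed by 0.21 at 500 mg/kg (adjusted p = 0.229) and by 0.17 at 1000 mg/kg (adjusted p = 0.280), and the rotor subunit Atp5f1c by 0.13 at 1000 mg/kg (adjusted p = 0.345). A second Atp5po probe set went the other way, by -0.07 at 500 mg/kg and -0.12 at 1000 mg/kg. It was far dimmer, with a mean over all arrays of 4.13, against 12.12 for the one used.

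In the catalytic head, Atp5f1a differed by 0.05 at 500 mg/kg and Atp5f1b by 0.03, and at 1000 mg/kg Atp5f1b differed by -0.02, with a 95% interval of -0.12 to 0.08. Atp5mc3, a c-ring gene with a liver mean of 12.66, differed by -0.04 at 1000 mg/kg. The membrane-part subunits Atp5mg and Atp5mk were the 2 members lower in each array at 1000 mg/kg than in each at 0 mg/kg. Atp5mk measured 11.57, 11.47, 11.62 and 11.55 at 500 mg/kg and 11.29, 11.32, 11.37 and 11.33 at 1000 mg/kg, against 11.38, 11.44, 11.37, 11.42 and 11.38 at 0 mg/kg. Its arrays lay above control at 500 mg/kg (difference 0.15, adjusted p = 0.245) and, by less than the second decimal, below it at 1000 mg/kg (difference -0.07, adjusted p = 0.612). Atp5mg followed the same order, with differences of 0.11 at 500 mg/kg (adjusted p = 0.441) and -0.10 at 1000 mg/kg (adjusted p = 0.428).

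Atp5if1 encodes the small protein that blocks ATP synthase from running backwards and burning ATP. It had the smallest p of the members in liver at 1000 mg/kg, with 8.72, 8.65, 8.94 and 8.71, against 8.25, 8.56, 8.64, 8.35 and 8.47 at 0 mg/kg. The lowest treated array lay just above the highest control array. The log2 difference was 0.30 ± 0.08 (SE; 95% interval 0.13 to 0.47, limma adjusted p = 0.0772), which did not pass the threshold. Without replicate 3 of the 0 mg/kg arrays the difference was 0.35 and the adjusted p 0.0482. Of its other probe sets, 1 had a difference of 0.18 and the other of -0.31, so its 3 probe sets disagree in direction. These other probe sets were dimmer, with means over all arrays of 5.57 and 5.27, against 9.93 for the one used. In kidney, where its values were 11.31 to 11.39 at 1000 mg/kg, against 11.27 to 11.44 at 0 mg/kg, the difference was -0.01, and the difference between the organs of 0.31 ± 0.10 (SE) had an adjusted p of 0.142.

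The 10 assembly factors taken in by the rule had liver medians of 0.17, 0.15, 0.16, 0.15 and 0.07 log2 units at 1, 10, 100, 500 and 1000 mg/kg. Ndufaf1, an early complex I assembly factor, measured 7.08, 7.12, 7.19 and 7.15 at 1 mg/kg, against 6.83, 6.95, 6.66, 6.95 and 6.76 at 0 mg/kg, with no overlap (difference 0.31, adjusted p = 0.284). At 1000 mg/kg its arrays, 7.03, 7.07, 6.90 and 7.26, overlapped with control, and the difference was 0.24 ± 0.07 (SE, adjusted p = 0.137). Sdhaf3, which helps to place the iron-sulphur clusters of Sdhb, measured 8.62, 8.30, 8.67 and 8.58 at 1000 mg/kg, against 8.26, 8.20, 8.30, 8.42 and 8.27 at 0 mg/kg (difference 0.25, adjusted p = 0.2). The arrays at 1000 mg/kg were above every control array in 3 of 4 cases. Sdhaf4, a factor for the flavoprotein Sdha, was above control in each array at 1000 mg/kg (difference 0.26, adjusted p = 0.206), and Ndufaf4 differed by 0.07.

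The signal of a probe set also depends on its own bases, so the levels of different members are given without an order between them. In liver, means over the 25 arrays (± SD) were 11.47 ± 0.08 for Sdhb, 12.43 ± 0.05 for Uqcrq, 11.97 ± 0.08 for Uqcr10, 12.53 ± 0.05 for Cox7b, 12.95 ± 0.05 for Atp5f1b and 10.87 ± 0.10 for Atp5me. In kidney, means over the 24 arrays were 12.80 ± 0.06 for Ndufa1, 12.76 ± 0.05 for Ndufb9, 12.43 ± 0.07 for Sdhc, 13.02 ± 0.05 for Uqcr10, 12.66 ± 0.06 for Uqcrfs1, 13.54 ± 0.13 for Cox7b and 13.61 ± 0.05 for Atp5mc3. The SD includes the differences between doses. The tissue isoforms had kidney means of 3.46 for Cox4i2, 3.99 for Cox6a2, 3.99 for Cox6b2, 4.82 for Cox7a1 and 4.17 for Ndufa4l2.

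**Figure D2:**
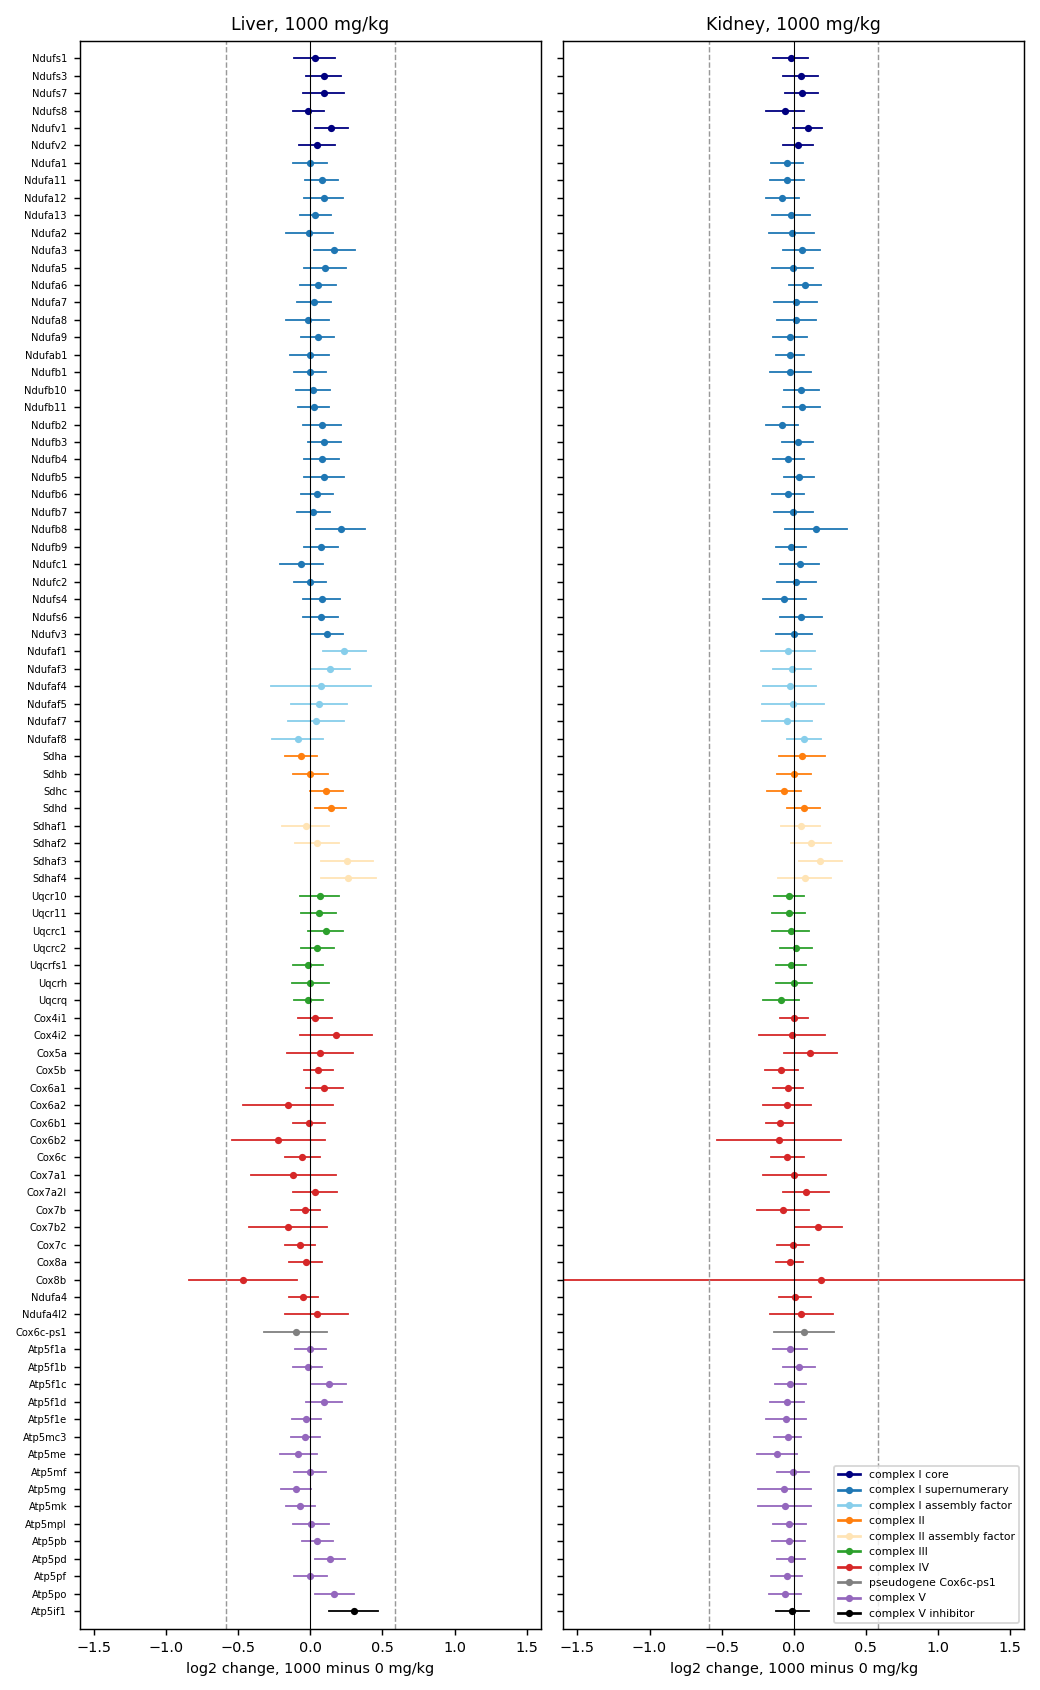
Log2 change at 1000 mg/kg against 0 mg/kg for each of the 90 members, grouped by complex, with liver and kidney in separate panels; points are limma estimates and lines their 95% intervals. Most points lie within 0.2 of zero in both organs, Atp5if1, Sdhaf3 and Sdhaf4 lie to the right in liver, and the Cox8b interval in kidney, -1.70 to 2.09, runs beyond the axis.

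Over the trend with dose rank (0 to 5) in liver, 14 members had an unadjusted p under 0.05, each with a positive slope, against 11.7% of all genes in either direction and 7.69% with a positive slope. The smallest adjusted p-values were 0.126 for Sdhaf4 (0.05 log2 units per dose step), 0.140 for Atp5if1 (0.05) and 0.165 for Ndufv1 (0.03). In the comparison at 1000 mg/kg, the 95% interval of the difference lay within a 1.5-fold change in either direction for 89 of 90 members in liver, within 1.2-fold for 71 and within 1.1-fold for 19; the exception at 1.5-fold was Cox8b. The spread behind these intervals was small: the median within-group SD was 0.07 for the members in liver and 0.07 in kidney, against 0.17 and 0.15 for all genes and 0.11 in each organ for the 3555 genes with the highest mean signal.

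Means of the hepatocyte, macrophage and brown adipocyte marker lists in liver are given beside these results. The mean of the 6 hepatocyte markers lay 0.05 to 0.14 log2 units below the 0 mg/kg mean in the 4 arrays at 1000 mg/kg, against -0.02 to 0.06 in the 0 mg/kg arrays, and it lay between -0.12 and -0.01 at 1 mg/kg and between -0.07 and -0.01 at 500 mg/kg. The mean of the 5 macrophage markers was -0.48 to -0.13 at 1000 mg/kg, against -0.16 to 0.29 at 0 mg/kg, which are ranges that overlap. At 1 to 500 mg/kg, where the complex I shift was seen, it ranged from -0.39 to 0.17 and overlapped with control at each dose. The mean of the 5 brown adipocyte markers was 0.18 to 0.35 at 1000 mg/kg, against -0.09 to 0.09 at 0 mg/kg. Of these 5, Cidea differed by 1.21, and Dio2 (0.27), Elovl3 (0.06), Cpt1b (0.03) and Ucp1 (-0.21) were not called. The part of these in the members' values was not tested.

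Other mitochondrial genes were read from lists of related function. In liver at 500 mg/kg the 73 mitochondrial ribosome genes had a median of 0.12, the 28 import genes 0.09, the 15 other assembly factors of complexes I, III and V 0.12, the 19 other complex IV assembly genes 0.07, the 14 citrate cycle and pyruvate dehydrogenase genes 0.09, the 7 genes of cytochrome c1 and other electron entry 0.05, and the 15 regulators of biogenesis and mitochondrial DNA 0.00. At 1 mg/kg the mitochondrial ribosome median was 0.10, with 66 of 73 positive. Of these genes 1 passed the adjusted threshold at 500 mg/kg and another at 1000 mg/kg, each from the import list. Samm50, of the outer membrane sorting machinery, rose by 0.40 at 500 mg/kg (adjusted p = 0.0482), and Timm10b, a small chaperone of the inner membrane import machinery, rose by 0.33 at 1000 mg/kg (adjusted p = 0.0413). The next in the import list at 1000 mg/kg were Samm50 (0.28, adjusted p = 0.0821), Timm50, Hspe1 and Grpel1 (0.19, 0.19 and 0.13, adjusted p = 0.232, 0.253 and 0.260), and in the ribosome list Mrps27 (0.36, adjusted p = 0.1), Mrpl14 (0.27, adjusted p = 0.110), Mrps31, Mrpl49 and Mrpl21 (0.19, 0.20 and 0.19, adjusted p = 0.247, 0.288 and 0.288). On the liver trend, the citrate cycle subunit Idh3g rose by 0.05 log2 units per dose step (adjusted p = 0.0446) and the ribosomal gene Mrps27 by 0.07 (adjusted p = 0.0490).

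**Figure D3:**
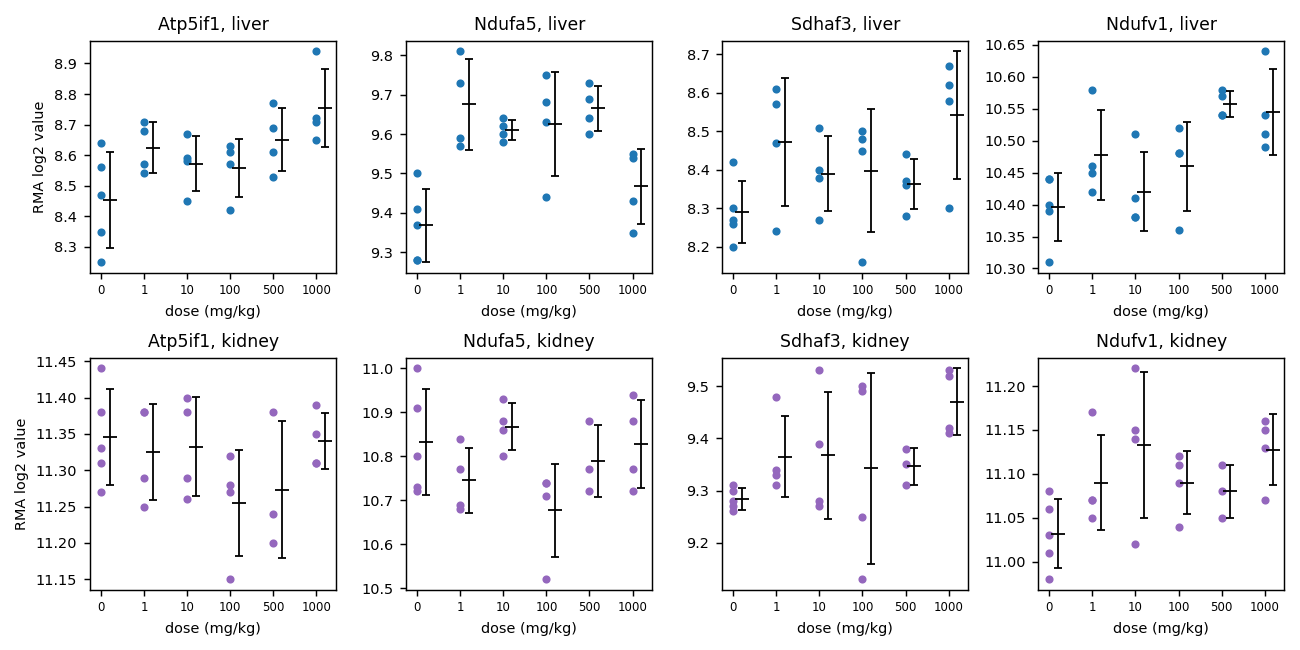
RMA log2 values of single members in liver or kidney by dose in mg/kg, as points for each array with the mean and SD (n = 4 or 5, and 3 in kidney at 500 mg/kg) beside them. Ndufa5 in liver is above the 0 mg/kg arrays at 1, 10 and 500 mg/kg and overlaps with them at 1000 mg/kg, whereas Atp5if1 in liver has its highest mean at 1000 mg/kg.

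In kidney the same comparisons gave medians of -0.02, 0.01, -0.01, 0.01 and -0.01 log2 units over the 90 members at 1, 10, 100, 500 and 1000 mg/kg, with 28, 48, 40, 47 and 37 of 90 positive (all genes 47.2%, 42.4%, 42%, 48.3% and 44.5%). An unadjusted limma p under 0.05 was reached by 0 members at 1 mg/kg (2.98% of all genes), 0 at 10 mg/kg (7.35%), 3 at 100 mg/kg (6.83%), 0 at 500 mg/kg (5.08%), 2 at 1000 mg/kg (13.3%) and 2 on the trend (12.5%). Those with a positive change were 0 at 1 mg/kg (1.51% of all genes), 0 at 10 mg/kg (3.12%), 1 at 100 mg/kg (2.13%), 0 at 500 mg/kg (2.22%), 2 at 1000 mg/kg (4.76%) and 2 on the trend (4.51%). Members higher in each array than in each at 0 mg/kg numbered 0 at 1 mg/kg (0.436% of all genes), 0 at 10 mg/kg (0.675%), 0 at 100 mg/kg (0.457%) and 2 in the 500 mg/kg group (1.75%). The number was 1 in the 1000 mg/kg group (1.62%). Those lower in each numbered 0 at 1 mg/kg (0.626%), 0 at 10 mg/kg (1.67%), 2 at 100 mg/kg (1.51%) and 0 in the 500 and 1000 mg/kg groups (2.55% and 3.09%). The 2 members higher at 500 mg/kg were Cox5a and Sdhaf3, and the 2 lower at 100 mg/kg were Cox6a2 and Uqcrq. Another Cox5a probe set was among those left out because a second symbol shared them, and the one used had a kidney mean of 7.70. The complex I median was between -0.07 and 0.07 in the arrays at 1000 mg/kg, against -0.05 to 0.08 in those at 0 mg/kg. The median of all 90 members at 1000 mg/kg was 0.03 with arrays centred on their median, equal to the 0.03 of all genes, which was -0.02 as deposited. At 1000 mg/kg the 95% interval lay within 1.5-fold for 89 of 90 members, within 1.2-fold for 82 and within 1.1-fold for 19, and the exception at 1.5-fold was again Cox8b.

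The kidney member with the smallest p at 1000 mg/kg was Sdhaf3, with 9.41, 9.52, 9.53 and 9.42, against 9.26, 9.30, 9.28, 9.31 and 9.27 at 0 mg/kg. The groups do not overlap, as for 1.62% of all genes in this direction, and the difference of 0.19 ± 0.07 (SE) had an adjusted p of 0.244. Among the other assembly factors Sdhaf2, which attaches the flavin to Sdha, differed by 0.12 (adjusted p = 0.477) and Ndufaf8 by 0.07 (adjusted p = 0.659). Cox7b2 differed by 0.17 (adjusted p = 0.346) at a mean signal of 2.8. In complex I the smallest p-values were those of Ndufv1 (0.10, adjusted p = 0.399), Ndufb2 (-0.08, adjusted p = 0.565) and Ndufb8 (0.15, adjusted p = 0.570). Complex II differed by 0.07 for Sdhd, -0.07 for Sdhc and 0.06 for Sdha, and the smallest p in complex III was that of Uqcrq (-0.09, adjusted p = 0.592).

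In complex IV, Cox6b1 differed by -0.09 (adjusted p = 0.393), Cox5b by -0.09 (adjusted p = 0.544) and Cox8a by -0.03, with Cox8a at 13.46 to 13.58 in the arrays at 1000 mg/kg. In complex V, 14 of 15 differences were negative, with a median of -0.04, against -0.02 for all genes, and of 0.01 with arrays centred on their median, against 0.03. They included Atp5me (-0.12, adjusted p = 0.482), Atp5po (-0.06) and Atp5pf (-0.05), and the exception was the catalytic subunit Atp5f1b (0.04). Cox6a2 at 100 mg/kg had the smallest p of any kidney member at any dose, with 3.87, 3.79, 3.76 and 3.65, against 4.08, 3.96, 4.12, 4.17 and 4.22 at 0 mg/kg (difference -0.34, limma adjusted p = 0.386). These are values near the low end of the scale, and at 1000 mg/kg the difference was -0.04.

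A single member varied between kidney arrays far more than any other: Cox8b, the complex IV subunit 8 isoform of heart, muscle and brown fat. Its SD over the 24 kidney arrays was 1.5, against 0.32 for the next, Cox6b2, 0.16 for Cox7a1 and 0.15 for Cox6c-ps1 and for Cox6a2. Cox8b measured 9.97 in replicate 4 at 10 mg/kg, 8.67 in replicate 1 at 500 mg/kg, 7.14 in replicate 1 at 100 mg/kg, 6.43 in replicate 1 at 10 mg/kg, 5.61 in replicate 1 at 1 mg/kg and 5.12 in replicate 4 at 0 mg/kg. In the other 18 arrays Cox8b lay between 3.97 and 4.82, including the 4 arrays at 1000 mg/kg (4.64, 4.82, 4.73 and 4.46). The high arrays belong to 5 doses, the 0 mg/kg control among them, and do not follow the dose.

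The same arrays were high in fat markers. Ucp1, the uncoupling protein of brown fat, measured 11.92 in replicate 4 at 10 mg/kg, 10.51 in replicate 1 at 500 mg/kg, 9.14 in replicate 1 at 100 mg/kg and 7.56 in replicate 1 at 10 mg/kg. It was 4.30 to 4.87 in the 17 arrays outside the 7 with raised adipocyte markers, and 6.05 to 11.92 in those 7. Cidea (6.41 to 10.56 against 5.37 to 6.08) also separated the 7 arrays from the 17, whereas Elovl3 and Dio2 did not and Cpt1b was above the 17 in 3 of the 7. Adipoq (6.37 to 7.59 against 4.76 to 5.99) and Fabp4 (9.15 to 11.62 against 5.54 to 8.01) did so too. Both are among the 8 markers by which the 7 arrays were picked, so their separation adds no support. The others of those 8, Plin1, Lep, Lipe, Cidec, Cfd and Plin4, overlapped between the 7 and the 17. Of the 7, replicate 3 at 10 mg/kg had Cox8b at 4.78, within the range of the 17. The part of fat in the Cox8b values was not tested.

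**Figure D4:**
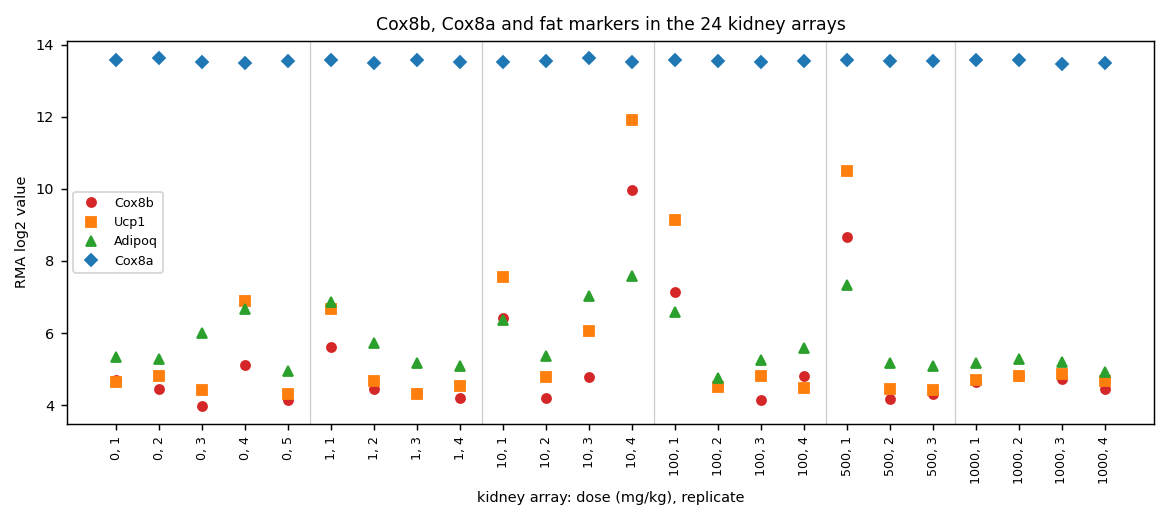
RMA log2 values of Cox8b, Cox8a, the brown fat gene Ucp1 and the fat gene Adipoq in each of the 24 kidney arrays, ordered by dose in mg/kg and replicate. Cox8b and Ucp1 are high in the same single arrays except replicate 3 at 10 mg/kg, where Ucp1 is high and Cox8b is not. Their highest values (9.97 and 11.92) are in replicate 4 at 10 mg/kg, while Cox8a lies between 13.46 and 13.63 throughout.

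Of the 4 arrays at 10 mg/kg, 3 were among these 7, and the Cox8b mean was 6.35 at 10 mg/kg, against 4.47 at 0 mg/kg, a difference of 1.88. Without the 7 arrays it was 4.21 in the single array left at 10 mg/kg, against 4.31 in the 4 left at 0 mg/kg. At 500 mg/kg the difference of 1.24 became -0.07, and at 1000 mg/kg, where a control array alone was left out, 0.19 became 0.35. Of the other isoforms set side by side, these did not separate the 7 arrays: Cox8a was 13.50 to 13.63 in them, against 13.46 to 13.63 in the 17, Cox7a1 was 4.71 to 5.09 against 4.42 to 5.13, and Cox4i1 12.77 to 12.89 against 12.78 to 12.95.

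The promoters of the 2 subunit 8 genes are shown because the widely expressed and the tissue isoform differ in the motifs they hold. Both are RefSeq sequences of GRCr8 on the minus strand, Cox8a at chr1:213833574-213833873 and Cox8b at chr1:205408224-205408523, from 250 bases before to 50 after the start. In Cox8a the capitals mark 2 matches to the ETS motif on the opposite strand, which begin 58 and 20 bases before the start. In Cox8b they mark the TATA letters, which begin 39 bases before it.
Cox8a promoter: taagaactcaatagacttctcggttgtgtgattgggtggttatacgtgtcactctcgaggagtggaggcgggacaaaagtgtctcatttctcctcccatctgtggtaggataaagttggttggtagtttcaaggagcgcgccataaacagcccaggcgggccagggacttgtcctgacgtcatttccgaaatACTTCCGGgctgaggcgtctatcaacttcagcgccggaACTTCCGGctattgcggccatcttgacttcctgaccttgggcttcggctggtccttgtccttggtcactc
Cox8b promoter: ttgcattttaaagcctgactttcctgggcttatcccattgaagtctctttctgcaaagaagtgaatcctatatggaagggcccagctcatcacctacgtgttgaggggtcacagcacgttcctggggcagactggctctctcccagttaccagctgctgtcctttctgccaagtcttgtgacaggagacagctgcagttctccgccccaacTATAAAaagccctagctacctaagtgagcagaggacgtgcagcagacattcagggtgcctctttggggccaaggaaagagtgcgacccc
None of the 6 promoters of tissue isoforms held an NRF1, ETS or YY1 match, against 41.5% of the 82 member promoters, a count of 6 being too small to carry a comparison. The absence is not particular to them, since the other complex IV promoters of Cox4i1, Cox5a, Cox6b1, Cox7a2l, Cox7b, Cox7c and Ndufa4 held none either. Cox5b and Cox8a held an ETS match.

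The contrast of liver with kidney in the response at 1000 mg/kg was tested over all 49 arrays. The median over the 90 members was 0.04 log2 units (liver change minus kidney change), equal to the 0.04 over all genes. An unadjusted p under 0.05 was reached by 10 members, against 12.3% of all genes, and 9 of these were positive, against 8.22%. After Atp5if1, the smallest p-values were those of Atp5po (difference 0.23 ± 0.08 SE, adjusted p = 0.213) and Atp5pd (0.16 ± 0.06 SE, adjusted p = 0.279). The fit treats liver and kidney arrays as independent, and the labels do not say whether arrays of 1 dose and number came from the same animal. With dose and number as a random replicate block across the organs, 0 members were called and 10 had an unadjusted p under 0.05, with an adjusted p of 0.102 for Atp5if1. A difference between liver and kidney was therefore not shown for any member at this dose, and at 1 to 500 mg/kg it was not tested.

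Among other mitochondrial genes in kidney, none passed the adjusted threshold at 1000 mg/kg, and the list medians there lay between -0.03 and 0.03. On the kidney trend the complex IV assembly gene Coa7 fell by 0.05 log2 units per dose step (adjusted p = 0.0309). Of the marker genes, the macrophage marker Adgre1 fell by 0.80 in kidney at 1000 mg/kg (adjusted p = 0.0218), and Cidea, a lipid droplet gene on the brown fat list, rose by 1.21 in liver at that dose (adjusted p = 0.0386). No other gene of the marker lists was called.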

How the data were processed

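Liver and kidney RNA of 49 arrays was analysed from the table the authors deposited, whose values are RMA log2 expression per probe set, per the submitters' processing notes; its version, background settings and whether the organs were processed together are not given in the sources used here. RMA gives arrays like distributions, so a shift shared by most genes can be hidden. Of 31099 probe sets, 20826 were annotated to 1 symbol, 436 to several and 9780 to none, with 57 control probe sets left out. Per gene the probe set with the highest mean was kept (14217 genes). Each organ was fitted on its own with limma 3.58.1 in R 4.3.3 (lmFit and eBayes, each dose against 0 mg/kg, plus a trend over dose ranks), and the organ difference over all arrays, with Benjamini-Hochberg adjustment over all genes at 0.05. The code was tested on simulated data. Genes named with values were the called ones, the 3 smallest p per complex and organ at 1000 mg/kg, the highest and lowest means, the tissue isoforms, the assembly factors with the smallest p, and the 5 largest SDs; others are marked in the text. Members and lists were chosen with earlier results of these data known. Motifs were searched in RefSeq promoters of GRCr8 on both strands. Alternatives covered normalization, probe sets, dim genes, the variance model, array weights, the groups fitted, a replicate block, adipocyte markers and left-out arrays.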

Additional observations from a re-analysis of the deposited data

Results flagged for a closer look

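Within the groups of 4 or 5 arrays, 198 sets of values were screened for 1 array that stands apart from the rest by Dixon's criterion, and 7 were found, where chance alone flags about 1 in 20. In liver at 1 mg/kg the complex V median of replicate 2 was -0.01, against 0.08 to 0.10 in the other 3 arrays. Also in liver at 1 mg/kg, Sdhd was 11.69 in replicate 3, against 11.54 to 11.56, and Atp5pd was 11.97 in replicate 4, against 11.87 to 11.88. Atp5pd was 11.91 in replicate 2 at 500 mg/kg, against 11.96 to 11.97, and Sdhaf3 was 8.16 in replicate 3 at 100 mg/kg, against 8.45 to 8.5. In kidney, Ndufa5 was 10.52 in replicate 3 at 100 mg/kg, against 10.71 to 10.74, and Ndufv1 was 11.17 in replicate 3 at 1 mg/kg, against 11.05 to 11.07. Values of single members were screened as rounded to 2 decimals. For Atp5pd at 500 mg/kg and for Ndufv1 the gap was 0.833 of the range, just past the criterion for 4 arrays, so rounding may decide these flags.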

How the results depend on the processing

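Over the 13 comparisons and their alternatives, 265 of 271 counts of called members were 0, as with the settings reported. At 500 mg/kg in liver 4 members were called when only genes at or above the median level were tested (Ndufa5, Ndufb3, Ndufv3 and Atp5pd) and 3 with a variance trend and robust moderation (Ndufa5, Ndufb3 and Atp5pd). At 1000 mg/kg in liver 1 member, Atp5if1, was called with the brighter genes alone, with the variance trend, with array weights and without replicate 3 of the 0 mg/kg arrays, so the counts with 1 array left out ranged from 0 to 1; its adjusted p over these 4 settings was 0.028 to 0.0482. In kidney the counts were 0 without the 7 arrays high in adipocyte markers, which leaves 1 array at 10 mg/kg, and with that marker mean as a covariate. With 1 array left out, all other counts were 0 (lowest and highest). The median member change moved to 0.0772 with quantile normalization and 0.058 with centred arrays at 500 mg/kg in liver, to 0.0058 and 0.0019 at 1000 mg/kg, and to 0.0327 with centred arrays at 1000 mg/kg in kidney. With 1 array left out it ranged from 0.08 to 0.12 and from 0.0225 to 0.0407 in liver at 500 and 1000 mg/kg, and from -0.0183 to 0.0112 and from -0.0288 to 0.0041 in kidney. Uqcr11 (0.0107) and Uqcr10 (0.0154) turned positive in kidney at 1000 mg/kg with centred arrays. With these 2 exceptions, 644 of 646 settings of named members kept their sign. Centring also moved the median of all genes, from 0.02 to -0.03 in liver at 500 mg/kg, from 0.02 to -0.02 in liver at 1000 mg/kg and from -0.02 to 0.03 in kidney at 1000 mg/kg. The cause of the shifts with quantile normalization was not tested. Of the 11 other probe sets of the 10 members with several, 7 had the sign of the one used in liver at 500 mg/kg and 7 at 1000 mg/kg. In kidney 8 did at 500 mg/kg and 5 at 1000 mg/kg. Within an organ, deviations of a control and a dosed array with the same replicate number correlated above 0.1 in 4 of 20 liver pairs and 4 of 19 kidney pairs. For a liver and a kidney array of 1 dose and number this held in 12 of 23 pairs, with correlations from -0.02 to 0.23. Pairs of unlike numbers were not set beside these, so whether numbers pair the organs was not tested. With the replicate block within each organ the count of called members was 0 in each comparison. For the organ difference, a random replicate block of dose and number across the organs, chosen after seeing the data, had an estimated correlation of 0.07 and also gave 0.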
